A study of Mus musculus with 15 samples.

Results

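The Gst, Ugt and Sult genes encode enzymes that attach glutathione, glucuronic acid or sulfate to foreign and endogenous compounds. They were followed across liver tumors of mice. A probe belonged to the set if its gene name on the array began with Gst followed by the class letter a, k, m, o, p, t or z and a digit, or with Ugt or Sult and a digit, and the Sult2a genes were left out. This gave 46 of 24336 gene symbols on the array, 20 Gst, 15 Ugt and 11 Sult genes, measured by 66 of 55681 probes. Whole tumor RNA was hybridised to single-colour Agilent mouse arrays, 1 array for each of 15 tumors. The p53f/f HCC group held 5 hepatocellular carcinomas (HCC) of mice with floxed and intact Trp53 alleles, the gene of the tumor suppressor p53. These 5 came from 4 mice, because mouse 3717 gave 2 tumors. The p53LKO HCC group held 5 HCC, 1 from each of 5 mice in which Trp53 was deleted in the liver, and the p53LKO ICC group held 5 tumors of p53LKO mice that the labels call ICC, intrahepatic cholangiocarcinoma. The 2 p53LKO groups share 4 mice (3731, 3733, 3976 and 5283), so their tumors are not all from separate animals. All mice, controls included, carried the C57BL/6J background and had received the liver toxin CCl4 intraperitoneally in olive oil, 0.5 ul per gram of body weight, for 16 weeks. The Cre driver is not given in the sources used here, and neither is the age of the mouse behind each tumor, beyond ages stated for the cohorts.

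Conjugation is the second phase of detoxification, in which a lipophilic molecule becomes water soluble and can leave in bile or urine. Glutathione S-transferases (Gst) join glutathione to electrophiles, UDP-glucuronosyltransferases (Ugt) of the endoplasmic reticulum use UDP-glucuronic acid, and cytosolic sulfotransferases (Sult) use PAPS as the sulfate donor. Hepatocytes are the main site of these reactions in the liver, and several of the genes are textbook targets of the transcription factors Nrf2, Car and Pxr. The mouse genes lie in tandem arrays of close relatives, so the identity of a probe matters.

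The array measured each gene with oligonucleotides of 60 bases. The accessions printed beside the probes matched 1 RefSeq gene for 58 member probes, more than 1 gene for 6 and none for 2. The 6 were 1 probe each named Gstp1 (also matching Gstp2), Ugt1a10 (also Ugt1a9), Ugt1a6a and Ugt1a6b (each also other Ugt1a genes), Ugt2a1 (also Ugt2a2) and Ugt2b36 (also Ugt2b37), and the change of such a probe belongs to the group of transcripts. Only 1 pair of member probes of different genes shared a run of at least 15 bases, those of Ugt2b37 and Ugt2b5. A stretch of 30 bases of each is shown to illustrate how alike these paralogs are, with the shared run of 18 bases in capitals:
Ugt2b37: tgaatgAACTTTCAGCCTCATTCTaattta
Ugt2b5: gaacaAACTTTCAGCCTCATTCTtatttat
These probes lie on chromosome 5 of mm9, at chr5:87669707-87669766 for Ugt2b37 and chr5:87554155-87554214 for Ugt2b5.

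RefSeq promoter windows (GRCm38.p6, 250 bases before to 50 after an annotated start) were found for 41 of the 46 genes and searched on both strands for TGACNNNGC, the core of the antioxidant response element. It was present for 3 of the 41 genes (7.3%), Gsta3, Gstm5 and Gstm7, against 14% of all 27025 genes with a window. No test was made of these shares, and a match of letters is not a binding site. The 250 bases before the start of 4 genes are shown: the 3 that carry the match (in capitals), all called lower in ICC, and Ugt8a, called higher, which does not. Gstm7 has another window, at a start further upstream (chr3:107931768-107932067), which holds no match. The printed Gstm7 match lies after that start. Most of the 28 genes called lower in ICC had no match either, and nothing is read from it. The windows are chr1:21240335-21240584 and chr3:107895604-107895853 on the plus strand, and chr3:107931615-107931864 and chr3:125938653-125938902 on the minus strand:
Gsta3: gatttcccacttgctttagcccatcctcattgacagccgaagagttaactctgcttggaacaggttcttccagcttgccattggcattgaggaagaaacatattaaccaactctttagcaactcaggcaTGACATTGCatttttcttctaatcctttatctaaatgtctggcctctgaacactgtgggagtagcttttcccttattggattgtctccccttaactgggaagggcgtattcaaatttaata
Gstm5: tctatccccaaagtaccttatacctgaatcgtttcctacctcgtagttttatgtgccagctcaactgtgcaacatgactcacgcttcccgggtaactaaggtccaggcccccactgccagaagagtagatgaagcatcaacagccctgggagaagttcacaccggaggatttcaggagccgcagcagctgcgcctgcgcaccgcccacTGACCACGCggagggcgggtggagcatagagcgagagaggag
Gstm7: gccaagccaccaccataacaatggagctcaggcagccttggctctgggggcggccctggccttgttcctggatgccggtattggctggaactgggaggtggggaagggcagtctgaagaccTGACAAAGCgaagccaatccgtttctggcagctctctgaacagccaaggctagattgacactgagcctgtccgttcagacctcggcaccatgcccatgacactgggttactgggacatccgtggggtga
Ugt8a: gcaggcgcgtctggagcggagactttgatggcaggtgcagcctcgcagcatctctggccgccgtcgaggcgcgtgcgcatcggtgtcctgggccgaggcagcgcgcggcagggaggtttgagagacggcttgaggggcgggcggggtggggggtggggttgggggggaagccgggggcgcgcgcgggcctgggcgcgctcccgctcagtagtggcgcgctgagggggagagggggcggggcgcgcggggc

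Values below are log2 levels of the brightest probe of a gene, relative to the 75th percentile of its array, so that 1 unit is a factor of 2, and levels of different probes are not compared. A probe was tested if 3 or more arrays of either group had it well above background by the scanner software's call. It was called when the adjusted p of limma was under 0.05 and the change over 2-fold. The share of all probes well above background was 55.1% to 70.1% in p53f/f HCC, 37.0% to 62.1% in p53LKO HCC, with the 2 lowest values on the 2 arrays in the lower row of a slide (mice 3976 and 5283), and 42.5% to 47.0% in ICC, all in lower rows. Xist was above background on none of the 15 arrays and Ddx3y on all. P-values measure the spread between these tumors, and in bulk tissue fewer cells of a type and less RNA per cell cannot be told apart.

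**Figure D1:**
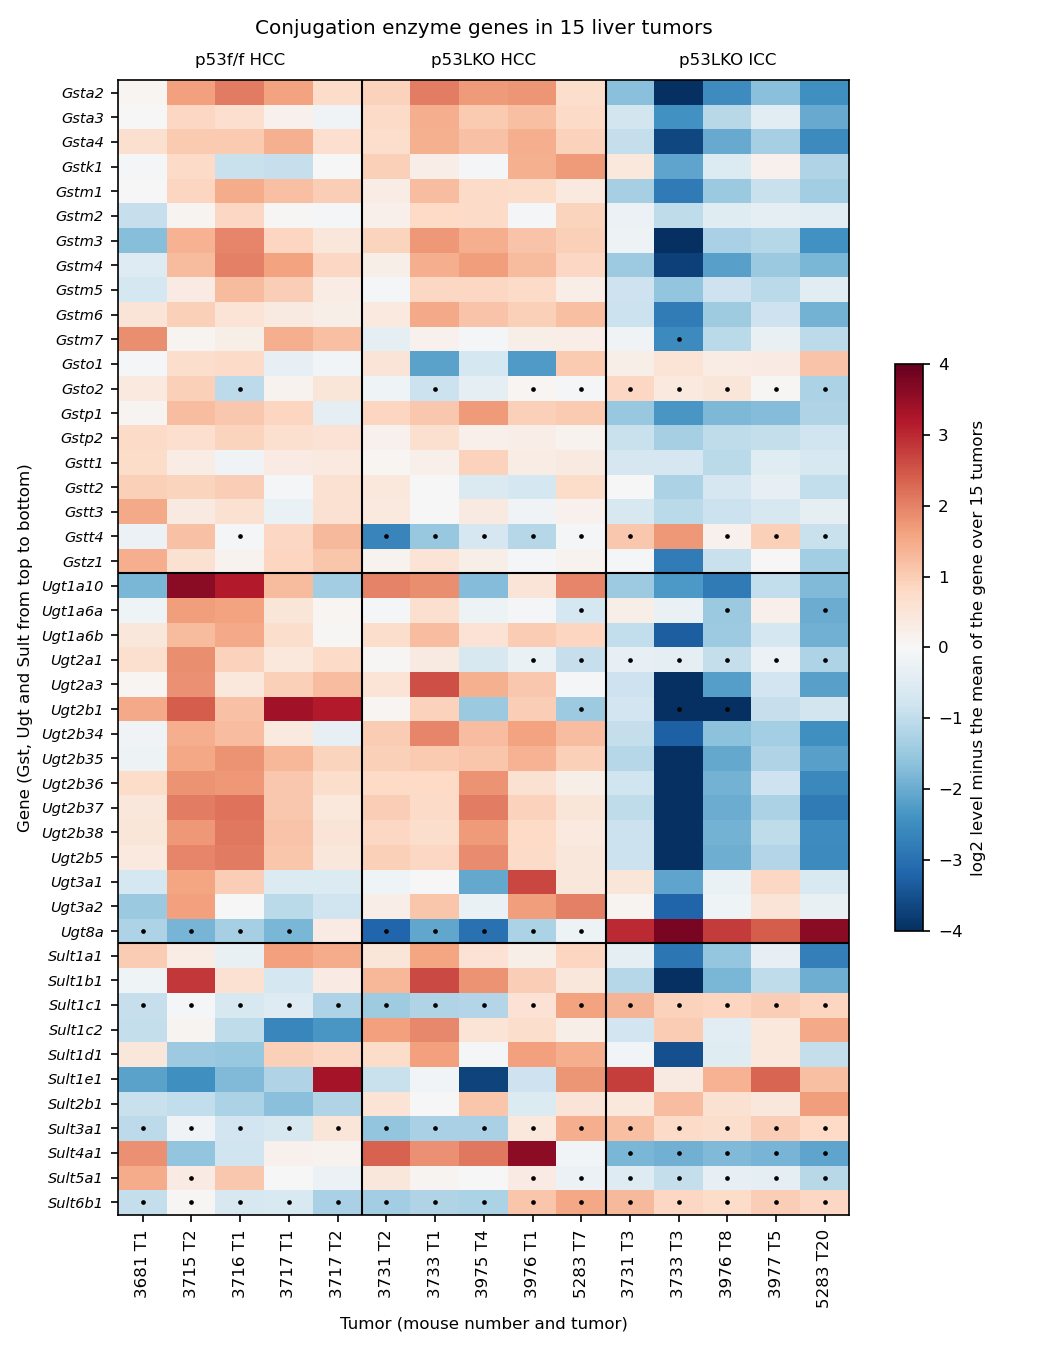
Heat map of the 46 genes (rows, Gst, Ugt and Sult from top to bottom) in the 15 tumors (columns, mouse and tumor), colored by the log2 level minus the mean of the gene over all tumors and capped at 4. Black dots mark values not well above background. The 2 HCC groups look alike for most genes, the ICC columns are blue for most of Gst and Ugt with mouse 3733 T3 the darkest, and Ugt8a is red in the 5 ICC.

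The first comparison asks how the tumors of mice without hepatic p53 differ from HCC of mice that keep it. The paper reports that tumors appeared later in p53f/f than in p53LKO mice. The age behind each tumor is not given, so genotype cannot be told apart from age or from the time a tumor took to form. Most conjugation genes were not called: of 61 member probes tested, 2 were higher in p53LKO HCC (3.28%), 3 were lower (4.92%) and 56 were not called. Over all 36086 probes tested, 3.64% were called higher and 16.0% lower. Values of 2 probes were higher and of 2 lower without overlap between the groups, against 6.10% and 16.4% of all probes. The median log2 fold change of the member probes was 0.09 and that of all probes -0.12. The higher genes were the sulfotransferases Sult1c2 and Sult2b1, and the lower ones were Ugt2b1, Ugt2a1 and Gstt4. Scaling to the 7 spike-in probes moved the median of all probes to 0.62 and gave 20 of 61 member probes higher and 1 lower, beside 27.3% and 6.39% of all probes, so that a statement on direction here holds relative to the other transcripts of the array.

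Sult1c2, a member of the phenol-sulfating family, had log2 levels of -0.11, 0.15, 1.48, 1.54 and 2.61 in the p53f/f HCC. The p53LKO HCC had 2.72, 3.02, 3.18, 4.12 and 4.41. There was no overlap, although the highest p53f/f tumor (mouse 3715) was close to the lowest p53LKO tumor (mouse 5283). The rise was 5.12-fold (log2 fold change 2.36, SE 0.52, adjusted p = 0.00628). Sult2b1, which sulfates cholesterol and is better known from skin, had levels of -1.35, -0.92, -0.88, -0.66 and -0.57 in p53f/f HCC. In p53LKO HCC they were -0.20, 0.36, 0.84, 0.89 and 1.43, again without overlap. The rise was 2.91-fold (1.54, SE 0.29, adjusted p = 0.00251). A 2-sided exact permutation test, which has 252 possible splits of the 10 tumors, gave p = 0.00794 for each of these genes, the smallest value it can give. Groups without overlap always give this value, so it adds nothing to the lack of overlap. The test treats the tumors as separate, although 2 came from mouse 3717, which had the 2 lowest Sult1c2 values. With these 2 averaged, limma gave 2.08 for Sult1c2 (adjusted p = 0.0163) and 1.48 for Sult2b1 (adjusted p = 0.00727). Both calls held under all alternatives tried.

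Sult4a1, a brain sulfotransferase with few known substrates, had the largest change that was not called. Its levels were -2.56, -1.80, -0.87, -0.81 and 0.84 in p53f/f HCC and -1.09, 0.82, 1.11, 1.35 and 2.57 in p53LKO HCC. The groups overlapped (log2 fold change 1.99, SE 0.71, adjusted p = 0.0522). It was called under 6 of 29 alternatives: normexp background, spike-in scaling, all 15 arrays in 1 model, the upper row alone, and without p53f/f mouse 3681 or p53LKO mouse 5283. Of its other probes 1 gave 1.91 (adjusted p = 0.0671) and 1 gave -0.25 (adjusted p = 0.674).

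Ugt2b1, 1 of the Ugt2b enzymes for steroids, phenols and bile acids, fell most. Its levels were 0.28, 0.61, 1.52, 2.25 and 2.45 in p53f/f HCC and -2.39, -2.37, -0.83, 0.00 and 0.09 in p53LKO HCC. No value overlapped, and that of mouse 5283 was not well above background. The fall was 5.76-fold (log2 fold change -2.53, SE 0.61, adjusted p = 0.0093). Ugt2a1, a form best known from the nasal epithelium, fell 2.31-fold (-1.21, SE 0.31, adjusted p = 0.0135), from -2.85, -2.64, -2.52, -2.36 and -1.42 to -4.21, -3.92, -3.53, -3.24 and -2.93. Its signal was near background, with 3 of the 5 p53LKO arrays well above it, and the call was lost under 7 of 28 alternatives: normexp background, quantile normalization, spike-in scaling (where the log2 fold change was -0.47), an adjusted p under 0.01, the row as a block, the upper row alone, and without p53f/f mouse 3715. The other 7 Ugt2 genes, on the same chromosome where placed, lay between -0.36 and 0.87 and were not called. On the list of male-predominant liver genes, 3 of 9 tested were lower in p53LKO HCC (Mup20, Slco1a1 and C6), with a median of -2.17, and of the female-predominant genes 1 of 5 was lower, with a median of -0.11. In p53f/f HCC, T1 and T2 of mouse 3717 had the highest Ugt2b1. They also had the lowest mean level of the male-predominant list (-0.75 and 0.60, against 2.06 to 3.35). In p53LKO HCC mouse 3975 had the lowest mean level of the list (-1.44) and the lowest Ugt2b1 (-2.39). Mouse 5283 had nearly the same Ugt2b1 (-2.37) at a list level of -0.06. The remaining p53LKO HCC had Ugt2b1 of -0.83 to 0.09 at list levels of -0.26 to 0.87. Whether the list and Ugt2b1 go together was not tested.

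Of the 20 Gst genes, 1 was called. Gstt4, a theta-class gene, was not well above background in any p53LKO HCC but in 4 of 5 p53f/f HCC, a fall of at least 1.64-fold (measured means -3.53 and -5.35). It passed the filter through p53f/f HCC alone, so its adjusted p (0.0135 by limma) sets signal against background. Its levels were -4.37, -4.18, -3.31, -2.97 and -2.83 in p53f/f HCC and -6.77, -5.65, -5.29, -4.81 and -4.22 in p53LKO HCC, which overlapped, and the call was lost with normexp background correction, spike-in scaling, the Mann-Whitney test and an adjusted p under 0.01. The alpha class, which detoxifies products of lipid peroxidation, showed its largest difference for Gsta3, with levels of 7.44, 7.57, 7.73, 8.25 and 8.39 in p53f/f HCC and 8.32, 8.33, 8.62, 8.76 and 9.03 in p53LKO HCC. This was 1.67-fold (0.74, SE 0.23, adjusted p = 0.0325), under the fold limit. Gstp1, the pi-class enzyme abundant in male mouse liver, had levels of 6.48 to 8.08 (median 7.70) in p53f/f HCC and 7.70 to 8.55 (median 7.88) in p53LKO HCC. It was not called (0.54, SE 0.31, adjusted p = 0.207), and neither was the second Gstp1 probe (0.66, adjusted p = 0.155). The 7 mu-class genes Gstm1 to Gstm7 ranged from -0.91 (Gstm7) to 0.64 (Gstm3), and 0 of them was called. Gstk1, the kappa-class enzyme of mitochondria and peroxisomes, reached 1.07 (SE 0.42, adjusted p = 0.0704). Gsto1, an omega-class enzyme that reduces dehydroascorbate, had levels of 3.84 to 4.94 in p53f/f HCC but 1.90, 2.02, 3.45, 4.67 and 5.22 in p53LKO HCC, so that the wide spread lay in 1 group. Gsta2, Gsta4, Gsto2, Gstp2, Gstt1, Gstt2, Gstt3 and Gstz1 were not called either.

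**Figure D2:**
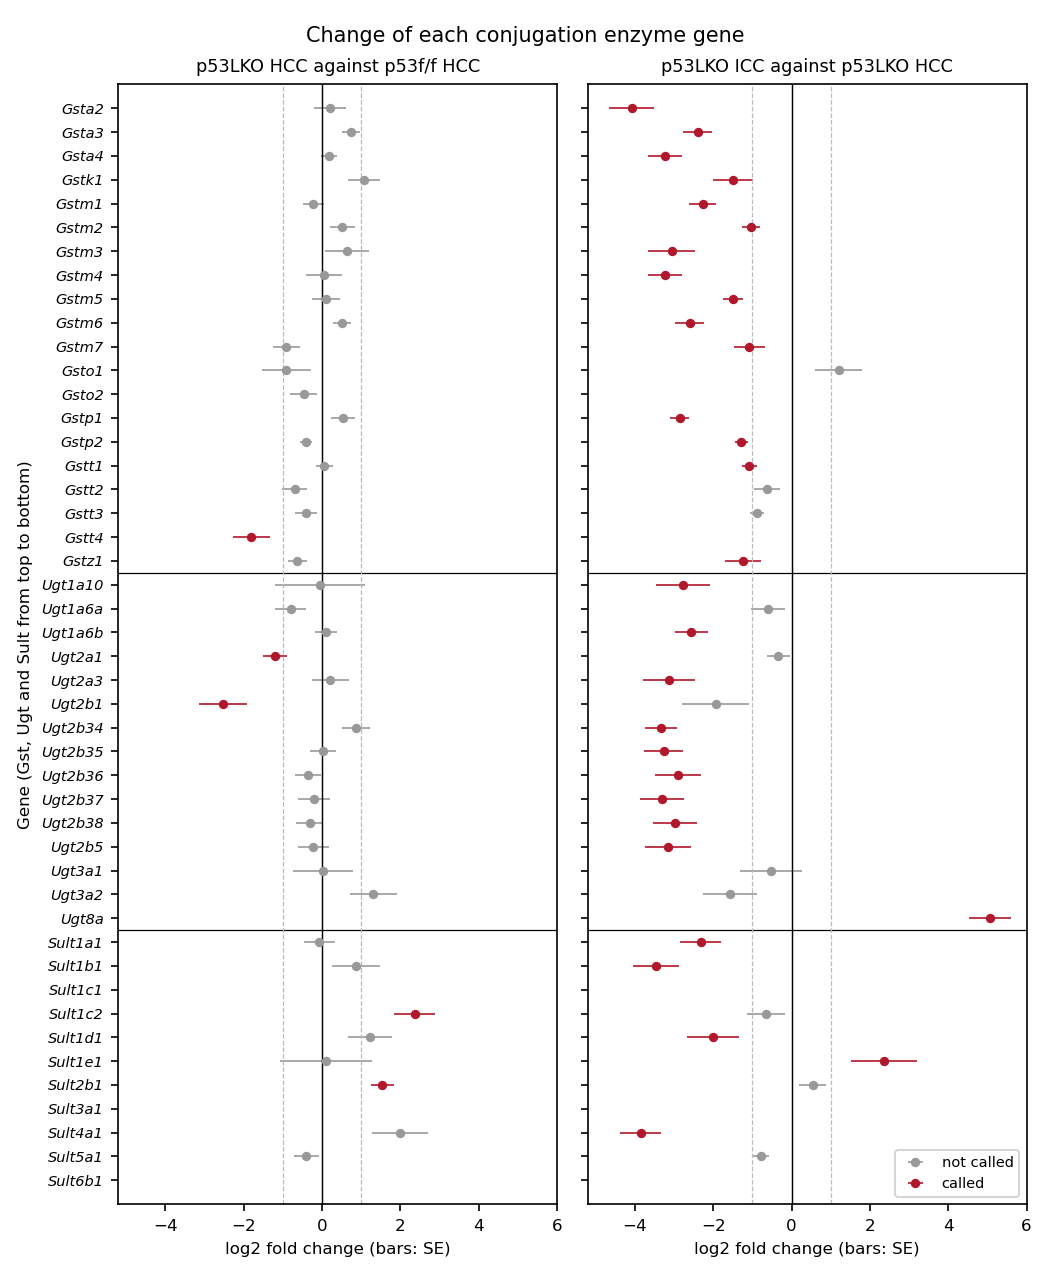
Log2 fold change with its SE (bars) of each gene in the 2 comparisons, brightest probe per gene. Red marks genes called, gray genes not called, dashed lines a 2-fold change, and a missing point a gene that was not tested. On the left 5 points are red and lie on both sides of 0, and on the right 28 red points lie to the left and 2 to the right, Ugt8a and Sult1e1.

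The second comparison sets the 2 tumor types of p53LKO mice against each other. Here the conjugation genes were lower in ICC in all 3 families: of 60 member probes tested, 43 were called lower (71.7%), 2 higher (3.33%) and 15 not called. Over all 32666 probes tested, 13.4% were called lower and 12.9% higher. The median log2 fold change was -2.34 for the member probes and -0.16 for all probes. Scaled to the 75th percentile of probes above background on all arrays, 34 member probes were lower and 2 higher, against 6.89% and 19.1% of all probes, and the medians were -1.97 and 0.21. Counted by gene, 28 of 41 tested were lower and 2 higher, with 15 of 18 Gst, 9 of 15 Ugt and 4 of 8 Sult genes lower. Of these probes 38 did not overlap and were lower and 1 was higher, against 18.6% and 9.99% of all probes. With the mouse as a fixed block, which pairs the tumors of the 4 shared mice, 38 probes were lower (12.1% of all probes) and 1 higher, and the calls of Gstm2 (adjusted p = 0.0545), Gstm7 (0.0866), Gstz1 (0.0748), Gstt1 (no longer over 2-fold) and Sult1e1 (0.159) were lost. The 5 ICC arrays and 2 of the HCC arrays lay in the lower row of a slide. Lower calls fell to 35 of 60 with the row as a block and to 30 of 54 in the lower row alone, beside 11.5% and 11.1% of all probes. In the lower row alone, 2 HCC arrays could not meet the filter of 3 arrays, so a probe entered only through ICC. Probes not above background in ICC, such as the brightest of Sult4a1, were thereby left out of the 54. Without those 2 HCC arrays, a setting chosen after seeing the data, 39 of 60 were lower beside 13.5% of all probes. The members' median was -2.37, -2.43 and -2.34 in these settings. Among the representative probes, the calls of Sult1a1, Ugt2a3, Sult1d1, Gstm2, Gstm7, Gstz1 and Sult1e1 were lost both with the row as a block and in the lower row alone, and those of Gstm3 and Ugt2b36 in the lower row alone. This comparison shares the p53LKO HCC arrays with the first.

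All 3 alpha-class genes were lower. Gsta2 fell most, with levels of 6.99, 7.20, 7.98, 8.03 and 8.31 in p53LKO HCC and 1.29, 3.77, 3.81, 4.60 and 4.61 in ICC. This was a 17.0-fold fall (log2 fold change -4.08, SE 0.58, adjusted p = 0.000423). Gsta4, which conjugates the lipid peroxidation product 4-hydroxynonenal, fell 9.41-fold (-3.23, SE 0.44), and Gsta3, known in mice for the detoxification of aflatoxin epoxide, fell 5.27-fold (-2.40, SE 0.36).

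The mu class was lower in all 7 genes, from -1.03 for Gstm2, whose call was lost under 10 of 30 alternatives, to -3.23 for Gstm4. Gstm4 had levels of 4.44, 5.02, 5.46, 5.65 and 5.85 in p53LKO HCC and 0.45, 2.01, 2.38, 2.72 and 2.73 in ICC (adjusted p = 0.00034). Gstm3 (-3.06), Gstm6 (-2.60), Gstm1 (-2.27) and Gstm5 (-1.49) also did not overlap between the groups. Gstm7 (-1.08, SE 0.40, adjusted p = 0.0461) overlapped and lost its call under 22 of 29 alternatives, and its second probe was not called (-0.95, adjusted p = 0.0574). The mm9 positions of Gstm5, Gstm7, Gstm6, Gstm3 and Gstm2 span 83.6 kb on chromosome 3, between 107701101 and 107784681. The size of the fall differed among these neighbours.

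Gstp1 was separated from p53LKO HCC by a wide gap, with levels of 7.70, 7.78, 7.88, 7.92 and 8.55 in p53LKO HCC and 4.5, 5.05, 5.10, 5.31 and 5.63 in ICC. The fall was 7.19-fold (-2.85, SE 0.24, adjusted p = 2.6e-05), and its second probe gave -3.18. The probes of the near-identical Gstp2 differed in size: -1.28 (SE 0.16) for the brightest, which has no mm9 position, and -3.0 (SE 0.22) for the other, at chr19:4040983-4041042. The second Gstp1 probe matches both genes, so the split between Gstp1 and Gstp2 is uncertain. Among the theta class, Gstt1 fell 2.12-fold (-1.08, adjusted p = 0.0014; the call was lost under 6 of 30 alternatives), Gstt3 did not reach 2-fold (-0.88, SE 0.18, adjusted p = 0.00309), and Gstt2 was not called (-0.62, adjusted p = 0.15). Gstk1 (-1.50, SE 0.51, adjusted p = 0.0321) and Gstz1, which isomerises maleylacetoacetate in tyrosine breakdown (-1.24, SE 0.46, adjusted p = 0.0467), were lower but overlapped, and their calls were lost under 14 and 21 of 30 alternatives. Gsto1 was the 1 tested Gst gene with a positive value (1.21, SE 0.60, adjusted p = 0.123), at 4.40 to 5.29 in the 5 ICC. Gsto2 and Gstt4 did not pass the filter.

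Of the Ugt2 genes, 7 of 9 were lower. Ugt2b34 had levels of 6.80, 7.01, 7.02, 7.38 and 7.73 in p53LKO HCC and 2.53, 3.33, 4.13, 4.42 and 4.84 in ICC, a 10.1-fold fall (-3.33, SE 0.40, adjusted p = 0.000171). Ugt2b37 (-3.31), Ugt2b35 (-3.26), Ugt2b5 (-3.15), Ugt2a3 (-3.13), Ugt2b38 (-2.98) and Ugt2b36 (-2.90) fell by similar amounts without overlap. The Ugt2b37 and Ugt2b5 probes share the run printed above, and its part in their like values was not tested. Ugt2b1, already low in p53LKO HCC, was not called (-1.94, SE 0.85, adjusted p = 0.0831). Its ICC values were -5.07, -5.00, -1.83, -1.67 and -1.64, and the 2 lowest (mice 3976 and 3733) were not well above background. Ugt2a1 was not called (-0.34, adjusted p = 0.351) and was above background in 0 of 5 ICC.

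The Ugt1 genes share their last exons and differ in the first, so that a probe in the shared part reads the whole locus. The brightest Ugt1a6b probe, whose accessions name 4 Ugt1a genes, had levels of 8.10, 8.22, 8.38, 8.51 and 8.75 in p53LKO HCC and 4.20, 5.60, 6.05, 6.53 and 6.79 in ICC. The fall was 5.89-fold (-2.56, SE 0.42, adjusted p = 0.000921). The other Ugt1a6b probe at chr1:90004249-90004308, which matches that gene alone, had a larger fold change (-3.61, SE 0.57, adjusted p = 0.000761). Ugt1a10 varied widely within HCC, from -1.79 (mouse 3975) to 1.92 (mouse 3731), and was -2.87 to -1.02 in ICC. It was called lower (-2.77, SE 0.68, adjusted p = 0.00805), and its p53f/f HCC spanned -1.89 to 3.55, the widest SD of that group (2.51). The Ugt1a6a probe, which also matches Ugt1a1, Ugt1a10 and Ugt1a7c, was not called (-0.60, adjusted p = 0.294) and was above background in 3 of 5 ICC. The brightest Ugt1a6b probe matches Ugt1a6a too, so the change of Ugt1a6a is uncertain. Ugt3a1 and Ugt3a2, which use sugars other than glucuronic acid, were not called (-0.52 and -1.57, adjusted p = 0.617 and 0.0831).

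Ugt8a went the other way. This gene encodes the enzyme that makes galactosylceramide, a lipid of myelin, and not a detoxifying transferase. It was not well above background in any p53LKO HCC and in 1 of 5 p53f/f HCC, but in all 5 ICC, at -1.48, -1.09, -0.93, -0.29 and -0.09. The level in ICC was at least 11.5-fold higher than in p53LKO HCC (measured means -0.78 and -5.84). The probe passed the filter through ICC alone, so its adjusted p (9.4e-05 by limma) sets signal against background and adds no support to the bound. The call held under all 29 alternatives that tested it. The filter for signal on every array left it out.

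Among the sulfotransferases, Sult4a1 and Sult1b1 fell most. Sult4a1 was not well above background in any ICC and well above it in all 5 p53LKO HCC, a fall of at least 12.5-fold. It passed the filter through p53LKO HCC alone, so its adjusted p (0.000339 by limma) sets signal against background. A second probe was also called, and the remaining one, whose accession matched no RefSeq gene, was not (-0.95, adjusted p = 0.131). Sult1b1, which sulfates thyroid hormones, had levels of 1.95, 2.49, 2.84, 3.29 and 4.15 in p53LKO HCC and -2.66, -0.44, -0.31, 0.36 and 0.49 in ICC, an 11-fold fall (-3.46, SE 0.59, adjusted p = 0.00116). Sult1a1, the main phenol sulfotransferase of liver, fell 5.01-fold (-2.32, SE 0.52, adjusted p = 0.00499), and with the row as a block the value was -2.12 (adjusted p = 0.0527). Sult1d1, which acts on catecholamines, overlapped between the groups (-2.01, SE 0.66, adjusted p = 0.0288), its call was lost under 11 of 30 alternatives, and its second probe was not called (-1.70, adjusted p = 0.0723).

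Sult1e1, the estrogen sulfotransferase, was called higher in ICC, but its values overlapped. They were -4.72, -1.92, -1.86, -1.12 and 0.74 in p53LKO HCC and -0.67, 0.17, 0.37, 1.29 and 1.75 in ICC (log2 fold change 2.36, SE 0.84, adjusted p = 0.0407). The call was lost under 16 of 30 alternatives, among them leaving out any 1 of 8 of the 10 tumors and the row as a block. In p53f/f HCC the gene was high in 1 tumor, 2.29 in T2 of mouse 3717, and -3.48 to -2.24 in the others. Biliary markers were also highest in that tumor among the p53f/f HCC (mean log2 level -0.50 against -3.08 to -2.14), and their part in the value was not tested. Sult1c2 and Sult2b1, the genes higher in p53LKO HCC, were not called between ICC and p53LKO HCC (-0.65, adjusted p = 0.288, and 0.54, adjusted p = 0.209). Sult5a1 was not called (-0.79, adjusted p = 0.0111). It was above background in 0 of 5 ICC, so the size of its fall is not known. Sult1c1, Sult3a1 and Sult6b1 were above background on 0 of 15 arrays.

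**Figure D3:**
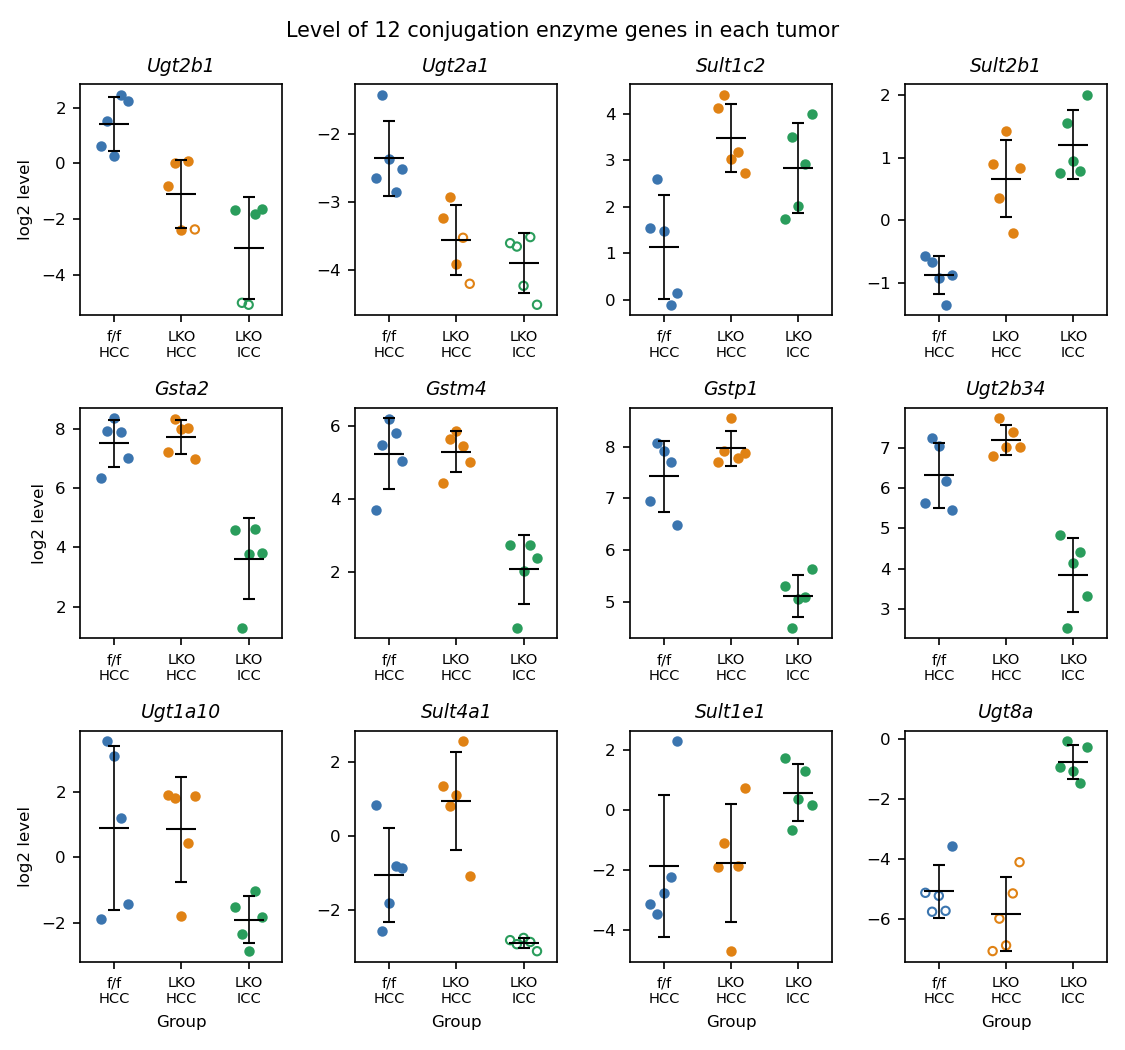
Log2 level of 12 genes in each tumor of the 3 groups, with the mean and SD as black lines, filled circles well above background and open circles not. Ugt2b1 and Ugt2a1 step down and Sult1c2 and Sult2b1 step up between the HCC groups, the second row drops in the 5 ICC without overlap with p53LKO HCC, and Ugt8a is filled in the 5 ICC.

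On chromosome 5 of mm9, 11 members lay within 686.4 kb, between 87318849 and 88005246: Ugt2b34, Ugt2b1, Ugt2b35, Ugt2b5, Ugt2b37, Ugt2a3, Ugt2b38, Ugt2a1, Sult1b1, Sult1d1 and Sult1e1 in this order. In ICC 8 of them were lower, Ugt2b1 and Ugt2a1 were not called, and Sult1e1 was called higher, with the limits given above. Of the 4 Gstt genes within 58.3 kb on chromosome 10, 1 was lower.

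The 5 ICC differed among themselves in the same genes. T3 of mouse 3733 had the lowest value for 29 of the 35 genes above background in all 5 ICC. The mean log2 level over the 34 genes above background on all 15 arrays was 1.66 in that tumor and 2.88, 2.99, 3.62 and 3.63 in the other ICC. It was 4.78 to 5.17 in p53LKO HCC and 4.13 to 5.14 in p53f/f HCC, which overlapped. The median SD of these genes within a group was 0.72 in p53f/f HCC, 0.52 in p53LKO HCC and 1.00 in ICC. Hepatocyte markers had the same lowest tumor: their mean level was 4.19 in T3 of mouse 3733, 5.41 to 6.37 in the other ICC, 6.74 to 7.21 in p53LKO HCC and 7.0 to 8.02 in p53f/f HCC.

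Cell type markers were counted in both comparisons. Over all probes, 3.64% were called higher and 16.0% lower in p53LKO HCC, and 12.9% higher and 13.4% lower in ICC. A count near these shares is not read as a change of its list. Of the biliary and the stellate cell and fibroblast markers, 0 were called between the HCC groups. Between the HCC groups 3 of 7 periportal genes were lower in p53LKO HCC (median -0.73; Hal, Gls2 and Pck1), as were 1 of 9 hepatocyte markers (Apob, median -0.58) and 2 of 8 endothelial markers (Stab2 and Tek). Of 8 macrophage and neutrophil markers S100a8 and S100a9 were higher and Itgam was lower. The part of these cells in the changes of Sult1c2, Sult2b1 and Ugt2b1 was not tested. In the second comparison, of 9 hepatocyte markers 5 were lower in ICC and 0 higher (median -1.66, largest fall -2.76 for Apoa1), with none at background. Of 7 biliary markers tested 4 were higher and 0 lower (median 2.70). Epcam and Krt19 were above background in all 5 ICC, and the mean level of the list was -0.04 to 0.33 in ICC against -2.94 to -1.75 in p53LKO HCC. Of 8 stellate cell and fibroblast markers 5 were higher (median 1.77), with mean levels of 3.25 to 4.21 in ICC and 1.51 to 3.43 in p53LKO HCC. Of the 41 conjugation genes tested, 22 had a lower log2 fold change than the median hepatocyte marker and 15 a lower one than every marker on the list, with Ugt1a10 (-2.77) just past that limit. Pericentral genes were higher for 3 of 10 and lower for 0 (median 1.19), and periportal genes were lower for 4 of 7 (median -1.82). Of 8 T, B and NK cell markers 3 were higher and 1 lower, and of 8 macrophage and neutrophil markers 2 were higher. Of 7 male-predominant genes 3 were lower (median -1.27), of 5 female-predominant genes 1 (median -1.75), and of 3 pancreatic acinar markers 2. How much of the fall goes with the makeup of the tissue was not tested.

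**Figure D4:**
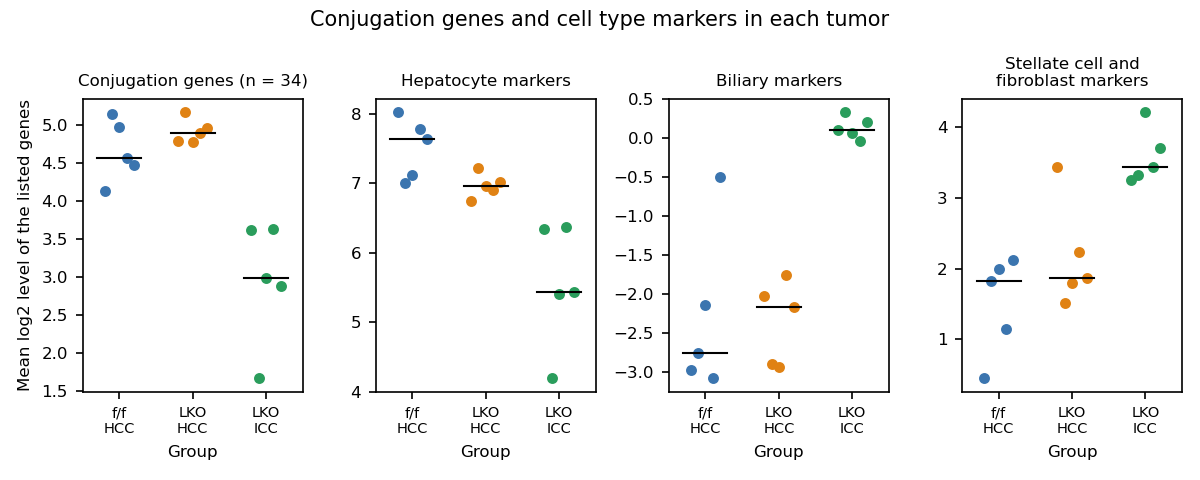
Mean log2 level per tumor of the 34 conjugation genes above background on all arrays and of 3 marker lists, with the group median as a line. Conjugation genes and hepatocyte markers are lowest in the ICC with the same tumor at the bottom, and biliary markers are highest there.

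The genes that supply and follow the conjugation reactions were taken from lists written by hand. Their counts stand beside 13.4% of all probes called lower and 12.9% called higher in ICC. In ICC 7 of 8 genes of glutathione supply and breakdown were lower (median -2.02), among them Gclc (-1.99) and Gclm (-2.12), the subunits of the rate-limiting ligase. Of 5 genes of UDP-glucuronic acid supply 3 were lower, with Ugdh, which oxidises UDP-glucose, at -2.88 and the transporter Slc35d1 at -2.21. Of 10 genes of PAPS supply and sulfate handling 4 were lower, and the PAPS synthases Papss1 (0.35) and Papss2 (-0.39) were not called. All 6 efflux pumps for conjugates were lower, from Abcc6 (-1.58) to Abcc4 (-4.43). Of the hydrolases and reductases that act before or beside conjugation 5 of 7 were lower, with Ephx1 at -2.97, Nqo1 at -3.23 and Cbr3 at -4.48. Acyl and amino acid conjugation had 4 of 8 lower, methyl conjugation 2 of 9 and the microsomal glutathione transferases 2 of 5 (Mgst3, -3.94, and Mgst1, -1.24).

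Among 11 regulators of these genes 5 were lower in ICC, beside 13.4% of all probes. Among them were Nr1i2 (Pxr) at -3.07, Ppara at -2.48 and Hnf4a at -2.03. Ahr, the dioxin receptor, was the 1 called higher (2.05, adjusted p = 0.00206), and Nfe2l2 (Nrf2) was not called (-0.39, adjusted p = 0.142). Between the HCC groups few partner genes were called, where 3.64% of all probes were higher and 16.0% lower. Ggt1, which breaks down glutathione outside the cell, was higher in p53LKO HCC (3.92, adjusted p = 0.0447), with overlap between the groups. So were Mgst3 (1.28), the glucuronidase Gusb (1.43), Nnmt (2.40) and the drug pump Abcb1a (1.13), and Acsm5 was lower (-1.41).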

How the data were processed

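RNA of 15 whole tumors was labelled with Cy3 and hybridised to Agilent SurePrint G3 8x60K mouse arrays. The authors deposited the scanner output of each array, in which Agilent Feature Extraction 10.7.3.1 (per the submitters' processing notes) gives a background-subtracted intensity for each spot, and a table of log2 values. The deposited log2 table correlated with the values rebuilt here (r = 1). Its HCC columns were centred on the HCC arrays, so it served as an alternative for that comparison alone. No columns of the authors' own comparisons were used.

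Here, the processed signals were brought to the log2 scale and each array's 75th percentile was subtracted, control spots were left out and spots of 1 probe were averaged. Probes that 3 or more arrays of either group showed well above background were tested between the 2 groups with limma 3.58.1 in R 4.3.3 (lmFit, eBayes), with Benjamini-Hochberg adjustment over all probes tested. Calls needed an adjusted p under 0.05 and a change over 2-fold. Where a probe was not well above background on any array of a group, the fold is a bound against the lowest signal well above background. On simulated data 86.5% and 83% of 200 changed probes were recovered in the first and second comparison. These shares hold only for the sizes of change put into those data. Recovery at other sizes was not tested, so the shares are not read for the genes not called. The number of arrays limits the precision, and no probe was saturated.

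A gene was represented by its brightest probe. Up to 5 genes with the largest rise and fall per family were named with values, with every Gst class and Gstp1, and the rest as counts. 1 gene of the regulator list, 1 of the periportal list and 1 promoter motif are not reported here. The members and gene lists were chosen with earlier results of these data known. Pairing came from the mouse numbers in the labels. Deviations from the group means correlated from -0.143 to 0.0655 in the 4 mice that gave both tumor types, and from -0.263 to 0.284 in the other 21 pairs. Alternatives covered background correction, scaling, filters, slide and row, the mouse as a block, the tests named in the study's methods and leaving out each tumor. Tables used pandas 2.3.3 and plots matplotlib 3.10.9.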

Additional observations from a re-analysis of the deposited data

Results flagged for a closer look

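In 5 of 120 pairs of a gene and a group, 1 tumor lay far from the other 4, and chance gives about 1 in 20 such pairs. T3 of mouse 3733 was the lowest ICC for Gsta2 (log2 level 1.29, next 3.77) and for Ugt3a2 (-0.26, next 2.62). Among p53LKO HCC, mouse 3975 T4 was the highest for Gstp1 (8.55, next 7.92) and mouse 3733 T1 for Gstp2 (8.96, next 8.60). Among p53f/f HCC, mouse 3717 T2 was the highest for Sult1e1 (2.29, next -2.24).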

How the results depend on the processing

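Between the HCC groups the counts of called member probes were small and moved with the setting. The 2 higher probes became 4 with normexp background, with all 15 arrays in 1 model and with no fold limit, and 20 with spike-in scaling (2.58%, 3.97%, 10.1% and 27.3% of all probes, against 3.64%). The 3 lower probes became 1 with normexp background, spike-in scaling or an adjusted p under 0.01, and 5 with the 75th percentile or the median of probes above background on all arrays. Lower calls over all probes moved too, from 16.0% to 5.44%, 6.39%, 12.3%, 22% and 20.3% in this order. Requiring signal above background on every array left 0 lower calls by limma (5 at an unadjusted p under 0.05). The 3 lower genes were not above background on all p53LKO arrays, so this filter removed them from the test and the 0 says nothing about their stability. Leaving out 1 tumor gave 2 to 6 higher (4 without p53f/f mouse 3681, 6 without 3715, 4 without p53LKO mouse 5283) and 3 to 5 lower (5 without p53f/f mouse 3716). Over all probes 2.85% to 4.67% were then higher, with 4.67% without mouse 3715, and 14.2% to 17% lower.

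In ICC the 2 higher probes became 1 with probes above background on every array, the row as a block, all 15 arrays in 1 model, the Mann-Whitney test, the methods' t-test, an adjusted p under 0.01, the mouse as a fixed replicate block or the lower row alone. They became 3 with quantile normalization and with probes above background on at least 1 array. Higher calls over all probes were 7.73% to 13.3% in the settings with 1, and 11.9% and 13.1% in those with 3, against 12.9%. Leaving out 1 tumor gave 1 to 3 higher and 37 to 46 lower, beside 10.1% to 14.2% and 12.1% to 15.5% of all probes. The 43 lower probes became 28 with 1 probe per gene, since fewer were tested, 38 with the mouse as a fixed replicate block and 43 as a random one. Lower calls over all probes were 13.9%, 12.1% and 13.5% in this order, against 13.4%. With 60 probes tested throughout, the 43 became 34 and 36 with the 75th percentile and the median of probes above background on all arrays, 35 with quantile normalization and 41 with spike-in scaling. The shares over all probes were 6.89%, 9.23%, 13.7% and 12.8% in this order.

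The direction turned for Gstp2 between the HCC groups with spike-in scaling (0.33), and in ICC for Ugt2a1 with the 75th percentile of probes above background on all arrays (0.03) and for Ugt3a1 without both lower-row p53LKO HCC arrays (0.41) and when single tumors were left out (-1.08 to 0.11, the latter without p53LKO mouse 3976). None of these was called. Where no construction of the alternative shows it, the cause was not tested.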
